A study of Mus musculus with 4 samples.

Results

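The genes of the mitochondrial respiratory chain and ATP synthase were followed in macrophages of mouse fat. They were taken by symbol, as all genes starting with Nduf, Sdh, Uqcr, Cox4, Cox5, Cox6, Cox7, Cox8, Atp5, mt-Nd, mt-Co, mt-Cytb or mt-Atp. Of the 32285 genes in the files, 111 had such a symbol. Of these, 100 reached 10 CPM, meaning counts of unique molecular identifiers scaled to 1000000 per library, in the pooled kept cells of at least 1 of the 4 libraries. They comprise 87 genes of the nucleus and 13 of mitochondrial DNA. The limit was reached in all 4 libraries by 98 of them. The gene mt-Nd6 reached it in 3 libraries, and Cox7a1 in the CKO HFD library alone, at 16.1 CPM. Ndufaf7 stood just inside, at 13.9 CPM in WT HFD. Sdhaf3 and Cox6b2 stood just outside, with highest levels of 9.66 and 9.63 CPM. The other 9 symbols under the limit were Ndufaf1, Ndufaf5, Ndufaf6, Cox4i2, Cox6a2, Cox7b2, Cox8b, Cox8c and Ndufa4l2.

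The study addressed the transcription factor BLIMP1 (gene Prdm1) in macrophages of perigonadal white fat under a change of diet. Live cells were sorted as CD45+, CD11b+, CD64+ and free of a lineage stain, then profiled with the 10x Genomics Chromium 3′ assay on an Illumina NovaSeq 6000. There were 4 libraries, 1 per group: control mice (WT in the labels) on a high-fat diet (WT HFD), BLIMP1 conditional knockout mice on a high-fat diet (CKO HFD), control mice on a normal diet (WT ND), and conditional knockout mice on a normal diet (CKO ND). The normal diet is called a standard diet, and the controls Ctrl, in the study's design. The sources used here do not name the Cre driver, the deleted exons, any allele the controls carry, or the number, sex and age of the animals. With 1 library in each group, library and group cannot be told apart, and no test across libraries was possible. All intervals below are 95% intervals for counting error only, and a gene is counted as higher or lower when its ratio of CPM + 1 is past 1.5 times, by size alone.

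Oxidative phosphorylation is carried out by complexes of the inner mitochondrial membrane. Complex I takes electrons from NADH, complex II (succinate dehydrogenase) from succinate, complex III passes them from ubiquinol to cytochrome c, and complex IV (cytochrome c oxidase) passes them to oxygen. Complex V, the ATP synthase, uses the proton gradient that complexes I, III and IV build. Mitochondrial DNA encodes the most hydrophobic catalytic subunits, while the nucleus encodes the rest, all of complex II, and the supernumerary subunits that surround the catalytic core. In macrophages the use of this chain is known to differ between alternatively and classically activated states.

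All 13 genes of mitochondrial DNA with an mt- symbol in the files are among these genes, so the filter that kept cells with at most 10% mt- counts acts on them directly. Some of them overlap on the heavy-strand transcripts, and 3′ reads there cannot always be given to 1 gene. The overlaps are shown because they touch mt-Atp8 and mt-Nd4l, whose values stand apart below. The sequences are from GENCODE M21 transcripts on GRCm38, plus strand, with the shared bases in capitals. The first, at chrM:7897-7999, holds 43 shared bases. The second, at chrM:10137-10203, holds 7.
mt-Atp8 and mt-Atp6: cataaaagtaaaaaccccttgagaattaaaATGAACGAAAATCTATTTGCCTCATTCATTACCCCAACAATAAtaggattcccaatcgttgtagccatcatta
mt-Nd4l and mt-Nd4: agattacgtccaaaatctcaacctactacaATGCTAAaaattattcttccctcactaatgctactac

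Promoters from RefSeq (GRCm38.p6, 250 bases before to 50 after the start) were matched for 75 of the 87 nuclear genes. Matches on both strands were sought to GCGCANGCG, the motif of NRF1 (nuclear respiratory factor 1), CCGGAAG, the motif of ETS factors such as GABPA, and AAGATGGCG, the motif of YY1. These factors are known for acting on respiratory genes. The promoters of Uqcr11, Cox8a and Atp5l, which were among the genes higher in CKO HFD than in WT HFD, and of Sdha, which was not, are shown with these matches in capitals, each 5′ to 3′ along its gene. All 4 genes lie on the minus strand. The windows are chr10:80406772-80407071, chr19:7217567-7217866, chr9:44920693-44920992 and chr13:74350191-74350490.
Uqcr11: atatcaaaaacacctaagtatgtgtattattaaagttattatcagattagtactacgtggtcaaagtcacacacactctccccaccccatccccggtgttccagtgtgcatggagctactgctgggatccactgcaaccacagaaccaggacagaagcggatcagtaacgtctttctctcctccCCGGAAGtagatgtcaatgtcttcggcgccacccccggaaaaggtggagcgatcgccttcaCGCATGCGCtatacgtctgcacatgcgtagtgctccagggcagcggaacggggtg
Cox8a: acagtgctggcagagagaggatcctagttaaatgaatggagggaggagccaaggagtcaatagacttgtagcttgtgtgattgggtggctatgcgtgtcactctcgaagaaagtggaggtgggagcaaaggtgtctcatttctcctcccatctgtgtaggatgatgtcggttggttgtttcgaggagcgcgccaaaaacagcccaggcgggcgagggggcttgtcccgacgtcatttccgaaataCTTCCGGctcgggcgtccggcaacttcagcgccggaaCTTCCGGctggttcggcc
Atp5l: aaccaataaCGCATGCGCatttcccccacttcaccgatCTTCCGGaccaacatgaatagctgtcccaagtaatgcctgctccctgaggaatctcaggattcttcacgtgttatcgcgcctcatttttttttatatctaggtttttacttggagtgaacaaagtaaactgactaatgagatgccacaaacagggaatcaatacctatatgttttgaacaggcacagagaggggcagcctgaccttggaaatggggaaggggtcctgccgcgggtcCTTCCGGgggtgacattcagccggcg
Sdha: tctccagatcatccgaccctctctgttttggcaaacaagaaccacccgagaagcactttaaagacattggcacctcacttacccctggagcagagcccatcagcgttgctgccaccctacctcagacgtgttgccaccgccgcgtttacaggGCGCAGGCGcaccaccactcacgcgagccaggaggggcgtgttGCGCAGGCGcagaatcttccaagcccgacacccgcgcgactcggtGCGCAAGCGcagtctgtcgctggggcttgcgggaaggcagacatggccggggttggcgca
The NRF1 motif was found in 28.0% of the 75 promoters, against 6.47% of all 27025 promoters and 15.6% of the 6860 promoters of genes with at least 10 CPM. The ETS motif was in 25.3%, against 9.12% and 20.8%, and the YY1 motif in 9.33%, against 1.5% and 3.91%. The E-box CACGTG was in 8.0%, against 7.24% and 11.2%, and TATAAA in 8.0%, against 14.2% and 6.91%. Of these promoters, 33 belong to genes over 1.5 times higher in CKO HFD than in WT HFD, a size that 5.1% of all tested genes passed. They held the NRF1 motif in 24.2% of cases, against 31.0% of the other 42. The shares were 30.3% and 21.4% for the ETS motif, 12.1% and 7.14% for YY1, 9.09% and 7.14% for the E-box, and 15.2% and 2.38% for TATAAA, which was in 5 of the 33 and 1 of the 42 promoters. A match is a run of letters, and no binding was measured.

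The libraries differed in depth and in other measures that move with the groups. Kept cells numbered 3705 to 8731, with 21788293 to 74442649 counts. The median was 14492.5 counts per cell in WT HFD and 3923 to 4092 in the other 3 libraries. Prdm1, the targeted gene, was at 21.9 and 22.9 CPM in WT HFD and CKO HFD, and at 22.9 and 28.4 CPM in WT ND and CKO ND. A 3′ count outside the deleted exons checks nothing, so the genotype labels could not be checked, and WT and CKO below mean the libraries so labelled. The sort markers Ptprc (CD45), Itgam (CD11b) and Fcgr1 (CD64) were present in all 4 libraries, at 318 to 875, 179 to 311 and 29.8 to 92.0 CPM. The macrophage genes Adgre1, Csf1r and Cd68 were at 273 to 399, 335 to 526 and 182 to 557 CPM. Of the fibroblast markers, 7 of 9 reached 10 CPM, with sums of 785, 416, 196 and 203 CPM in WT HFD, CKO HFD, WT ND and CKO ND. Of the B cell markers, 2 of 8 did, with sums of 24.9, 250, 64.0 and 144 CPM. Their part in the results below was not tested. Between 2 and 9 cell barcodes were shared by any pair of libraries.

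The balance between the transcripts of the nuclear and mitochondrial genomes differed most between the high-fat libraries. Mitochondrial-encoded counts made up 2.79% and 1.83% of all counts in WT HFD and CKO HFD, and 1.76% and 1.88% in WT ND and CKO ND. Nuclear-encoded counts made up 1.86%, 2.87%, 1.72% and 1.67% in the same order. The ratio of mitochondrial to nuclear counts was therefore 1.499 (1.496 to 1.502) for WT HFD and 0.638 (0.637 to 0.640) for CKO HFD, against 1.02 (1.02 to 1.03) for WT ND and 1.12 (1.12 to 1.13) for CKO ND. The high-fat libraries lay above and below the normal-diet pair, which lay close together. This ratio is free of library scaling, since both sums come from the same library.

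Between the genotypes, CKO HFD over WT HFD was 0.426 (0.424 to 0.427), and CKO ND over WT ND 1.10 (1.09 to 1.11). Between the diets it was 1.46 times as high under HFD in WT (1.46 to 1.47) and 0.568 times as high in CKO (0.565 to 0.571). Between the genotypes, each complex with subunits from both genomes had the same direction. For CKO HFD over WT HFD the ratio was 0.444 in complex I, 0.568 in complex III, 0.411 in complex IV and 0.345 in complex V. For CKO ND over WT ND it was 1.03, 1.11, 1.10 and 1.21. Complex III differed from the others under diet in CKO, where its ratio was 1.18 (1.16 to 1.20) against 0.493 to 0.601 in complexes I, IV and V.

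**Figure D1:**
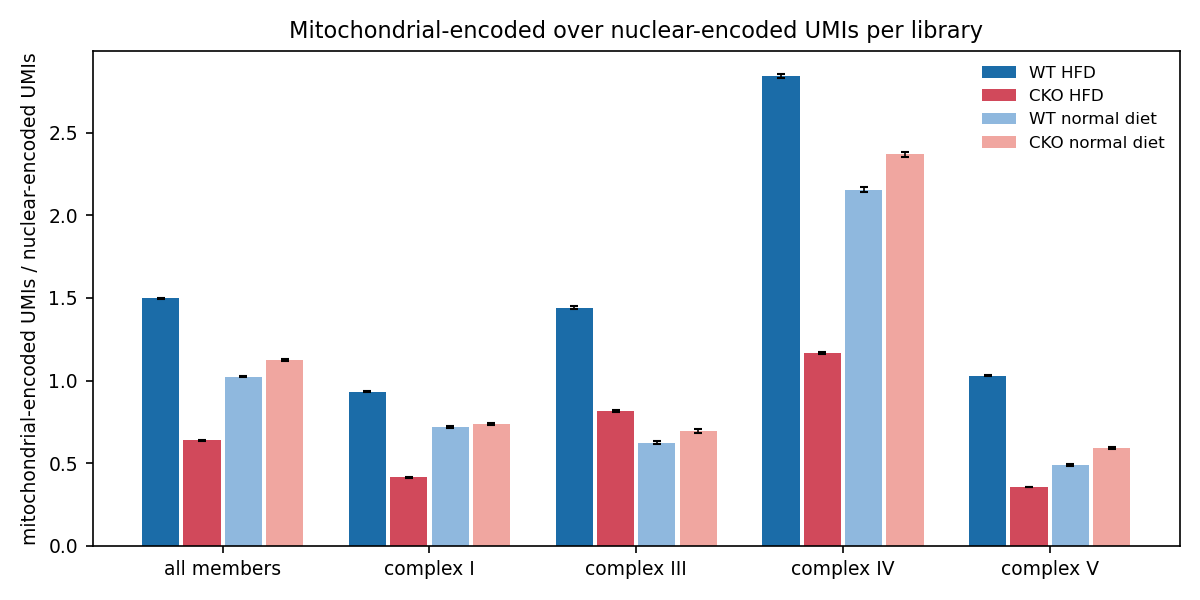
Mitochondrial-encoded counts (UMIs) divided by nuclear-encoded counts in each library, for all 100 genes and for the complexes with subunits from both genomes. Bars are pooled kept cells of 1 library, and error bars are exact 95% binomial intervals for counting error. WT HFD is the highest bar and CKO HFD the lowest in every group except complex III, where WT ND is lowest.

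Cell depth moved with this ratio, and its part in the difference between groups was not tested beyond the values here. In CKO HFD, WT ND and CKO ND the ratio was 1.20, 2.18 and 2.21 in cells under 2000 counts and 0.572, 0.850 and 0.931 in cells over 8000 counts. In WT HFD it was 0.757 in the 67 cells under 2000 counts, 2.19 in the 311 cells of 2000 to 8000 and 1.49 in the 4272 cells over 8000. In the range of 2000 to 8000 counts, a range chosen after seeing the data, the ratio was 2.19 in WT HFD against 0.651 in CKO HFD, 1.26 in WT ND and 1.36 in CKO ND. CKO HFD over WT HFD was 0.298 there, and 39 nuclear genes over 1.5 times higher became 60. In all kept cells 5.1% of all genes were past that size, and their share in this range was not computed. With each cell given equal weight, HFD over ND in WT was 1.18 in place of 1.46. The median cell had 1.80%, 2.64%, 1.35% and 1.33% of its counts in nuclear genes in WT HFD, CKO HFD, WT ND and CKO ND. For mitochondrial genes the medians were 2.69%, 1.80%, 1.62% and 1.77%. The quartiles ran from 1.49% to 2.11% for nuclear genes in WT HFD and from 2.16% to 3.17% in CKO HFD, so these ranges did not overlap. For mitochondrial genes they ran from 2.15% to 3.31% and from 1.40% to 2.31%, and did overlap.

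Among the 87 nuclear genes, 39 were over 1.5 times higher in CKO HFD than in WT HFD and 0 over 1.5 times lower, where 5.1% and 18.6% of all 8467 genes with at least 10 CPM were. The median log2 ratio of the 87 was 0.51, against -0.20 for all genes. Cox7a1, counted among the 39, reached 10 CPM in CKO HFD alone, so the limit itself favoured a high ratio for it. Under edgeR's TMM scaling the median of all genes moved from -0.20 to -0.00 and that of the nuclear genes to 0.72, so the gap between them was 0.72 and 0.73. With that scaling 56 nuclear genes were higher and 0 lower, where 9.60% of all genes were higher and 9.64% lower. A list of 8 genes, the nuclear-retained RNAs Malat1 and Neat1, the ribosomal RNA-overlapping Gm42418, and Camk1d, Cdk8, Lars2, Gphn and Cmss1, summed to 56869 CPM in WT HFD and 11067 in CKO HFD, and to 40042 in WT ND and 44163 in CKO ND. Its part in these differences was not tested. A pooled level also mixes the share of each cell type with the level per cell.

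Complex I contributed 42 of the nuclear genes, 16 of them higher in CKO HFD than in WT HFD, beside 5.1% of all genes. Their median was 0.48, against -0.20 for all genes. Ndufa13, a supernumerary subunit, was at 323 CPM in WT HFD and 462 in CKO HFD, and at 204 in WT ND and 207 in CKO ND, and was 1.43 times as high in CKO HFD as in WT HFD (1.40 to 1.46). Ndufa1, a supernumerary subunit encoded on the X chromosome, was at 158, 309, 226 and 200 CPM in the same order. WT HFD was the lowest library for it and CKO HFD the highest. Ndufa2 followed the same order at 261, 446, 290 and 276 CPM. The nuclear core of complex I differed less between the high-fat libraries. Ndufs1, which carries iron-sulfur clusters, was at 28.9, 28.1, 35.7 and 35.2 CPM. Its CKO HFD level was 0.972 times that of WT HFD (0.905 to 1.04). The 7 nuclear core subunits of complex I had a median log2 ratio of 0.06, and its 30 supernumerary subunits 0.53. Their summed counts were 1.17 (1.15 to 1.19) and 1.53 (1.52 to 1.54) times as high in CKO HFD as in WT HFD.

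Complex II, the member of the chain shared with the citric acid cycle, had 0 of 7 genes past 1.5 times in CKO HFD over WT HFD. Of all genes 5.1% were higher and 18.6% lower there, so 0 higher genes is near the background. The median of complex II was 0.11, against -0.20 for all genes. Sdhb, its iron-sulfur subunit, was at 137 CPM in WT HFD and 168 in CKO HFD, and at 61.2 in WT ND and 65.0 in CKO ND. Both high-fat libraries thus lay above both normal-diet libraries. Sdha, the flavoprotein, was at 90.9, 86.5, 99.5 and 102 CPM, and Sdhd, a membrane anchor, at 79.8, 86.0, 79.5 and 89.1 CPM. Neither was past 1.5 times in any of the 4 comparisons.

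In complex III, 5 of 8 nuclear genes were higher in CKO HFD than in WT HFD, beside 5.1% of all genes, with a median of 0.77. Uqcr11, a small subunit, was at 254 CPM in WT HFD and 546 in CKO HFD, and at 330 in WT ND and 310 in CKO ND. Its ratio of 2.15 (2.11 to 2.19) for CKO HFD over WT HFD was the highest of all 87 nuclear genes. The small subunit Uqcr10 was at 230, 479, 227 and 225 CPM, and Uqcrq at 291, 537, 286 and 270 CPM. For both, CKO HFD stood alone above 3 libraries close to each other. Uqcrc2, a large core protein of the complex, was at 71.7, 58.4, 58.4 and 63.5 CPM and 0.814 times as high in CKO HFD (0.776 to 0.854).

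In complex IV, 9 of 13 nuclear genes were higher, beside 5.1% of all genes, with a median of 0.81, the highest of the complexes. Cox7a1, counted among the 9, reached 10 CPM in CKO HFD alone, so the limit itself favoured a high ratio. Cox8a was at 662 CPM in WT HFD and 1304 in CKO HFD, and at 581 in WT ND and 555 in CKO ND. Cox6b1 was at 449, 877, 451 and 420 CPM, and Cox7c at 573, 951, 650 and 562 CPM. CKO HFD was the highest library for all 3 of these supernumerary subunits. Cox4i1, the first nuclear subunit to join the complex, was at 755, 658, 547 and 574 CPM and 0.872 times as high in CKO HFD (0.859 to 0.884). Cox7a2l, which links complexes III and IV into supercomplexes, was at 243, 184, 215 and 221 CPM. Its ratio of 0.756 (0.736 to 0.776) was the lowest of the nuclear genes in this comparison.

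In complex V, 9 of 17 nuclear genes were higher, beside 5.1% of all genes, with a median of 0.59. Atp5e, the epsilon subunit of the F1 head, was at 693 CPM in WT HFD and 1428 in CKO HFD, and at 699 in WT ND and 632 in CKO ND. Atp5md, a small membrane subunit, was at 182, 388, 241 and 198 CPM. Unlike Atp5e, Atp5b and Atp5a1 of the same head were lower in CKO HFD than in WT HFD. Atp5b, the catalytic beta subunit, was at 368, 307, 194 and 202 CPM and Atp5a1, the alpha subunit, at 334, 292, 323 and 334 CPM. The genes Atp5g1, Atp5g2 and Atp5g3 encode the same mature c subunit of the rotor. Atp5g1 was at 294, 483, 155 and 151 CPM, Atp5g2 at 497, 860, 427 and 424, and Atp5g3 at 224, 333, 273 and 280. All 3 were highest in CKO HFD, and Atp5g1 was also higher in both high-fat libraries than in either normal-diet library.

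**Figure D2:**
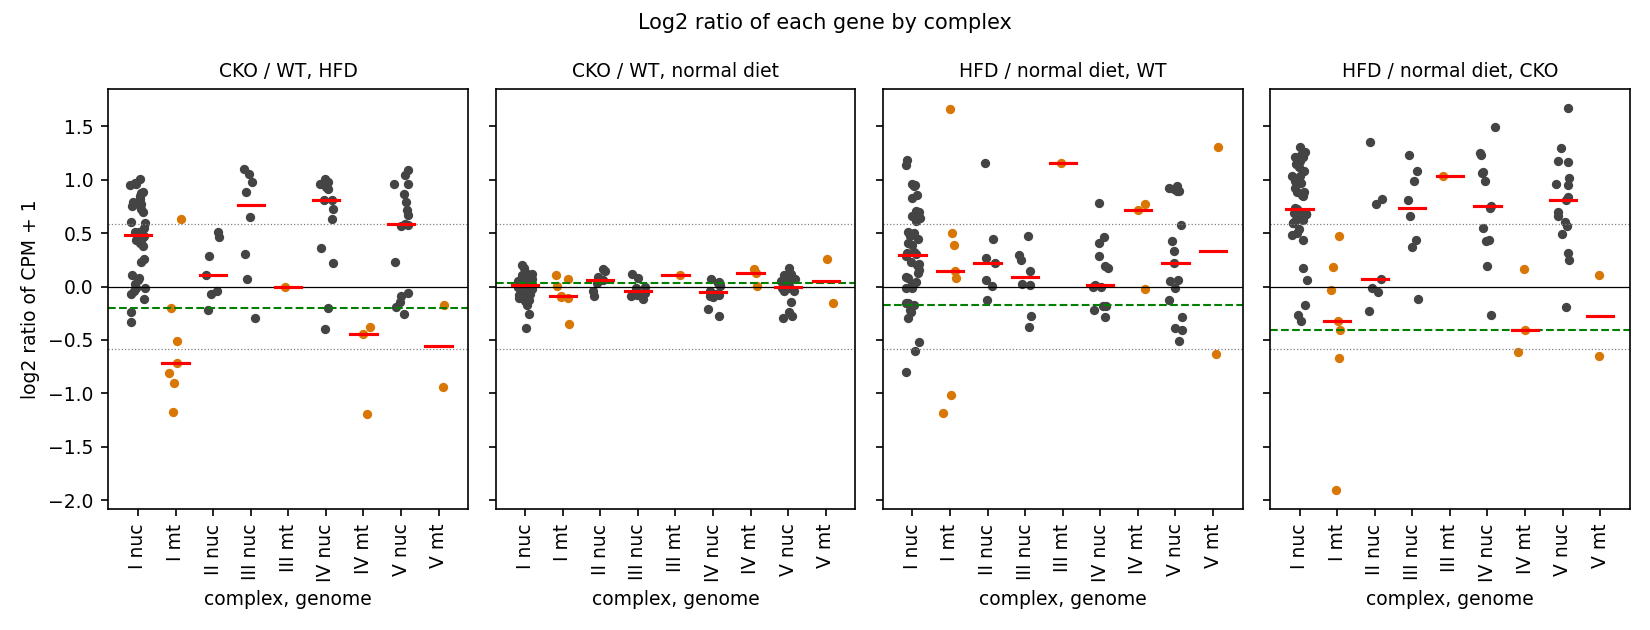
Log2 ratio of CPM + 1 for each of the 100 genes, by complex and genome (nuc, nuclear in grey; mt, mitochondrial in orange), in the 4 comparisons. Red bars are medians, dotted lines 1.5 times, and the dashed green line is the median of all 8467 genes. In CKO over WT under HFD the nuclear medians run from 0.11 to 0.81, and all mitochondrial genes but mt-Nd4l lie below 0.

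The kind of subunit and the length of its transcript moved together. Core subunits of all complexes (20 genes) had a median log2 ratio of 0.17 in CKO HFD over WT HFD, and supernumerary subunits (57 genes) 0.67. The median transcript was 1023 nt for core subunits and 606 nt for supernumerary subunits. Across the 87 genes the log2 ratio correlated with transcript length at a Spearman rho of -0.65 in CKO over WT under HFD, 0.57 in CKO over WT under ND, 0.48 in HFD over ND in WT and -0.22 in HFD over ND in CKO. These are descriptions, since the genes share the same libraries. WT HFD is the denominator in CKO over WT under HFD and the numerator in HFD over ND in WT. A length trend in that library would thus enter these comparisons with opposite signs. For all genes the rho was -0.35, 0.02, -0.30 and -0.45.

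The 29 genes with the shortest transcripts (321.5 to 572 nt) had a median of 0.81 in CKO HFD over WT HFD, and 22 were higher. The middle 29 had 0.59 and 15, and the 29 longest (908 nt and over) 0.11 and 2. Other genes within the same ranges of length had medians of 0.13 (287 genes), 0.04 (1103 genes) and -0.17 (3822 genes). Of these other genes 28.6%, 12.1% and 3.48% were higher, so the 2 among the longest 29 were near their background. Among the longest, the 13 core subunits had a median of 0.11 and the 10 supernumerary subunits 0.32. In the middle range, 6 core subunits had 0.32 and 21 supernumerary subunits 0.63. With each gene centred on genes of like transcript length, a choice made after seeing the data, 37 nuclear genes were past 1.5 times higher, and with centring on like gene span 34. The share of all genes past that size after centring was not computed.

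**Figure D3:**
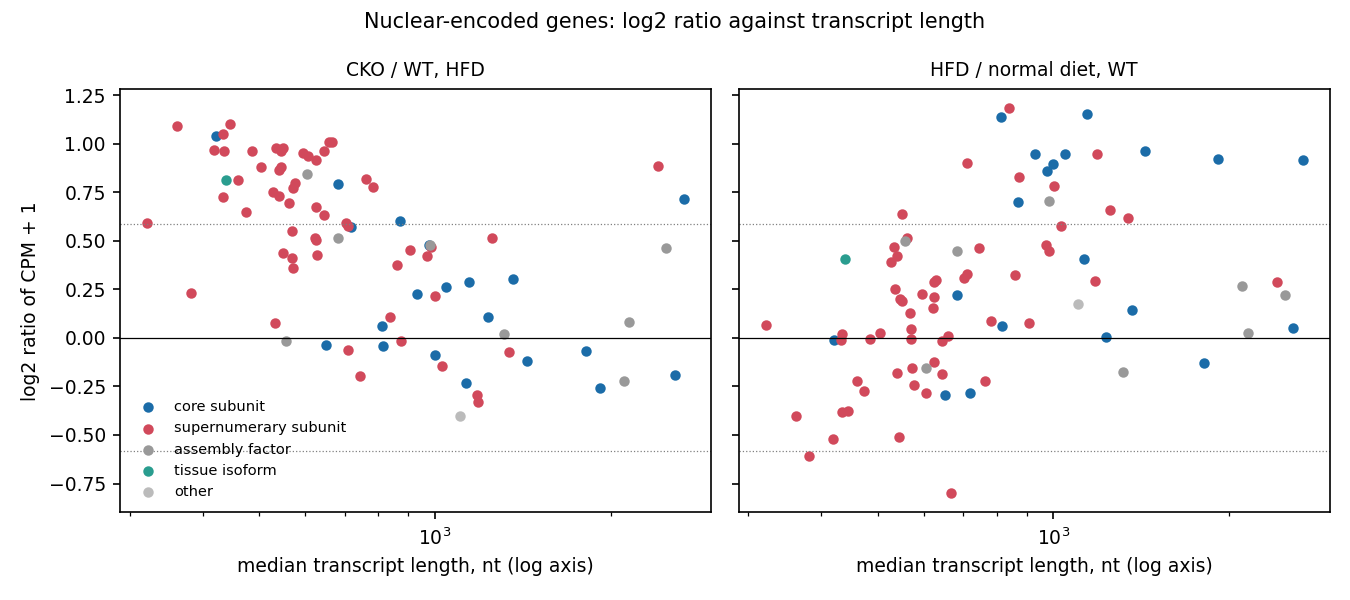
Log2 ratio of CPM + 1 for the 87 nuclear genes against the median length of their annotated transcripts (log axis), coloured by kind of subunit. Dotted lines mark 1.5 times. Short transcripts lie highest in CKO over WT under HFD (rho -0.65), and longer ones lie higher in HFD over ND in WT (rho 0.48). Both panels hold the same WT HFD library, as denominator in the former and numerator in the latter.

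On the normal diet the genotypes were close. Of the 87 nuclear genes, 0 were over 1.5 times higher and 0 lower in CKO ND than in WT ND, where 0.496% and 0.555% of all genes were. The median was 0.00 for nuclear and 0.01 for mitochondrial genes, and -0.02 and -0.01 under TMM scaling. The lowest ratio was that of Ndufb1-ps, at 0.765 (0.743 to 0.787). It was at 259 CPM in WT HFD and 522 in CKO HFD, and at 452 in WT ND and 346 in CKO ND. The annotation calls it a bidirectional promoter lncRNA, so its place as a complex I subunit rests on the symbol alone. Cox7a1, the muscle form in complex IV, followed at 0.799 (0.622 to 1.03), on few counts. Atp5k, a small ATP synthase subunit, was at 233 CPM in WT ND and 190 in CKO ND, a ratio of 0.816 (0.784 to 0.850). The highest was Ndufv2, an iron-sulfur subunit of complex I, at 56.0 and 64.8 CPM, a ratio of 1.16 (1.07 to 1.25).

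The diets were compared within each genotype, with no library shared between the comparisons. In WT, 19 nuclear genes were over 1.5 times higher under HFD and 2 lower, where 12.4% and 23.6% of all genes were. Under TMM scaling 31 were higher and 0 lower, where 21.4% and 12.9% of all genes were, and with cells weighted equally 33 were higher and 0 lower. The shares of all genes with cells weighted equally were not computed. The 2 lower without TMM scaling were Ndufb1-ps and Ndufa6. The highest ratios were those of Ndufa12, at 104 CPM in WT HFD and 45.3 in WT ND (2.30, 2.15 to 2.46), Sdhb (2.24, 2.12 to 2.38) and Ndufv2 (2.22, 2.09 to 2.36). Core subunits had a median of 0.55 and supernumerary subunits 0.16 here. Atp5d, of the F1 head, was at 280 CPM in WT HFD and 145 in WT ND, and Ndufa10, of complex I, at 85.3 and 43.8. Atp5l, a membrane subunit of the ATP synthase, went the other way, at 518 and 738 CPM.

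In CKO, 61 nuclear genes were over 1.5 times higher under HFD and 0 lower, where 11.5% and 40.5% of all genes were. Under TMM scaling 76 were higher and 0 lower, where 25.6% and 19.7% of all genes were. Without TMM scaling the median of the nuclear genes was 0.74, against -0.41 for all genes. Over all genes the log2 ratio fell with gene span (Spearman rho -0.64 here and -0.36 in HFD over ND in WT). The nuclear genes had a median span of 7.46 kb, against 26.4 kb for all genes. With centring on genes of like span the nuclear median was 0.60 here, and 0.06 in place of 0.21 in WT. With it 44 nuclear genes were higher and 1 lower here, and 17 and 5 in WT. The shares of all genes past 1.5 times after this centring were not computed. The part of span was not tested. Atp5g1 had the highest ratio in CKO, 3.20 (3.09 to 3.31), followed by Cox7a1 at 3.18 (2.62 to 3.89), Sdhb at 2.58 (2.45 to 2.73) and the assembly factor Ndufaf3 at 2.53. Cox7a1, counted among the 61, reached the limit of 10 CPM in CKO HFD alone, so the limit itself favoured a high ratio here. The ratio of Atp5j2, a membrane subunit of the ATP synthase, was 2.46 (2.40 to 2.52). Atp5j2 was at 390 CPM in WT HFD and 711 in CKO HFD, and at 290 in WT ND and 289 in CKO ND. Cox5b, of complex IV, was at 339, 640, 277 and 268 CPM. The lowest ratios were those of Ndufs1 (0.796), Ndufa6 (0.832), Cox7a2l (0.832), Sdha (0.849) and Atp5a1 (0.874).

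The 13 mitochondrial genes differed among themselves. In CKO HFD over WT HFD, 6 were over 1.5 times lower and 1 higher, with a median of -0.51, beside 18.6% lower and 5.1% higher of all genes. In CKO ND over WT ND none was past 1.5 times. In HFD over ND in WT, 5 were higher and 3 lower, beside 12.4% and 23.6% of all genes, so the lower count was near the background. In HFD over ND in CKO, 1 was higher and 4 lower, beside 11.5% and 40.5%, both below the background. The median in that last comparison was -0.32, and 0.16 under TMM scaling, so its sign depended on the scaling.

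Complex I is the complex with the most mitochondrial subunits. The gene mt-Nd2 was at 1560 CPM in WT HFD and 690 in CKO HFD, and at 493 in WT ND and 495 in CKO ND, 3.16 times as high under HFD in WT (3.10 to 3.23) and 1.39 times in CKO (1.36 to 1.42). Its neighbour mt-Nd1 was at 1362, 827, 1041 and 1095 CPM. WT HFD was the highest library for both. The genes mt-Nd3 and mt-Nd5 were at 421, 224, 382 and 356 and at 304, 213, 288 and 267 CPM, with CKO HFD lowest. For mt-Nd4 the levels were 1412, 1224, 999.4 and 1077 CPM. The gene mt-Nd4l, whose last bases are shown above, was lowest in WT HFD, at 191, 297, 387 and 304 CPM. The gene mt-Nd6, alone on the light strand, was at 11.4 CPM (10.6 to 12.2) and 6.04 CPM (5.32 to 6.82) in WT HFD and CKO HFD, and at 27.1 and 25.4 CPM on the normal diet. Both high-fat libraries lay below both normal-diet libraries for it.

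In complex IV, mt-Co1 was at 4486 CPM in WT HFD and 3453 in CKO HFD, and at 4546 in WT ND and 4573 in CKO ND. Its CKO HFD level thus stood below 3 libraries close to each other. The gene mt-Co2 was at 5085, 3735, 2969 and 3334 CPM, and mt-Co3 at 4623, 2019, 2820 and 3087 CPM. For CKO HFD over WT HFD the ratio was 0.437 (0.433 to 0.440) for mt-Co3 and 0.770 (0.765 to 0.775) for mt-Co1. The ATP synthase gene mt-Atp6 was at 5834, 3034, 2355 and 2818 CPM, 0.520 times as high in CKO HFD as in WT HFD. The overlapping mt-Atp8 was at 123, 109, 192 and 172 CPM, higher in the normal-diet pair.

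The cytochrome b gene mt-Cytb, the mitochondrial subunit of complex III, was the mitochondrial gene that differed least between the high-fat libraries. It was at 2499 CPM in WT HFD and 2484 in CKO HFD, and at 1121 in WT ND and 1209 in CKO ND. The interval of CKO HFD over WT HFD took in 1 (0.994, 0.987 to 1.00), while HFD over ND was 2.23 in WT (2.20 to 2.26) and 2.05 in CKO (2.03 to 2.08). The genes mt-Nd2, mt-Nd4, mt-Co2 and mt-Atp6 were also higher in both high-fat libraries than in either normal-diet library. As a share of mitochondrial counts, mt-Cytb took 8.95%, 13.6%, 6.36% and 6.43%. The ratio of mt-Cytb to mt-Co1 counts, which depends on no scaling, was 0.557 (0.554 to 0.560), 0.719 (0.714 to 0.725), 0.247 (0.243 to 0.250) and 0.264 (0.261 to 0.268). Within resident macrophage-like cells it was 0.551, 0.677, 0.243 and 0.268, and within dividing cells 0.558, 0.715, 0.252 and 0.272. Lipid-associated macrophage-like cells had 0.598, 0.677, 0.331 and 0.409, with the normal-diet libraries closer to the high-fat pair. In fibroblast-like cells, which numbered over 50 only in the high-fat libraries, it was 0.727 and 0.938.

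**Figure D4:**
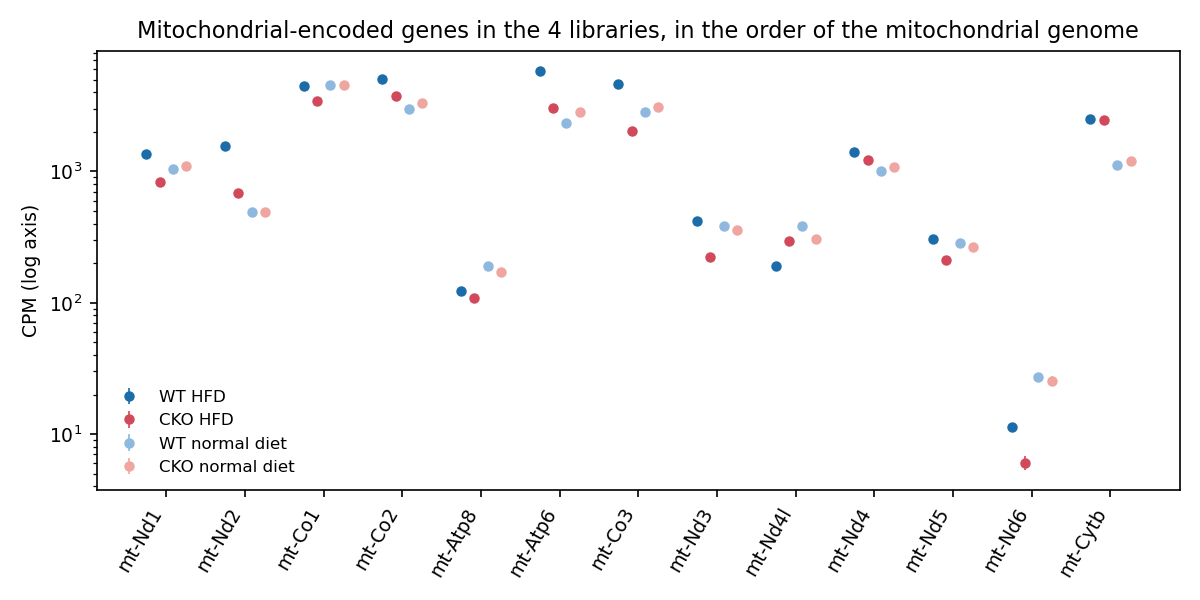
CPM (log axis) of the 13 mitochondrial-encoded genes in the pooled kept cells of the 4 libraries, in their order along the mitochondrial genome. Error bars are exact 95% Poisson intervals, mostly smaller than the points. For mt-Cytb both high-fat points lie near 2490 CPM and both normal-diet points near 1121 to 1209, while for mt-Co3 CKO HFD is lowest at 2019.

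The cells were clustered without these genes and without any mt- gene, and clusters were named from marker lists. In lipid-associated macrophage-like cells, which carry Trem2 and Gpnmb and are known from obese fat, the mitochondrial to nuclear ratio was 1.39 in 1193 WT HFD cells and 0.504 in 794 CKO HFD cells, and 0.808 in 102 and 0.949 in 55 cells of WT ND and CKO ND. In resident macrophage-like cells it was 2.19 (402 cells), 0.9504 (1136), 1.75 (1110) and 1.78 (1559). Most resident-like cells were in cluster 6 in the high-fat libraries and in cluster 1 in the normal-diet libraries. Lyve1 and Folr2 were among the 10 leading genes of cluster 6, and Gas6 and Stab1 among those of cluster 1. Dividing cells had 1.34, 0.573, 0.778 and 0.859. Within each of the 4 libraries the resident-like cells had the highest ratio of these 3 classes. They also had the lowest median counts per cell of the 3 in each library, at 12870, 3276, 3044 and 2964. Lipid-associated cells had medians of 17060, 5807, 6948 and 5917 counts, and dividing cells 21840, 7125, 11670 and 10810. The part of depth in this difference was not tested. The unnamed clusters, 39.4% to 65.4% of cells, had mitochondrial to nuclear ratios of 1.56, 0.649, 0.973 and 1.06.

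The fibroblast-like cells, 72 in WT HFD and 85 in CKO HFD, had ratios of 1.69 (1.66 to 1.73) and 0.465 (0.447 to 0.483). Type 2 conventional dendritic cell-like cells had 0.465 in CKO HFD, 0.839 in WT ND and 0.868 in CKO ND. Non-classical monocyte-like cells, over 50 only on the normal diet, had 1.13 and 1.12.

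Within classes, CKO HFD over WT HFD gave median log2 ratios for the nuclear genes of 0.62 in lipid-associated, 0.56 in resident-like and 0.48 in dividing cells, and for the mitochondrial genes of -0.53, -0.57 and -0.50. All genes in the same classes had -0.31, -0.12 and -0.21. Under diet in WT the classes parted, though the resident-like cells were mostly of cluster 6 under HFD and of cluster 1 under ND. Cluster and diet cannot be told apart in that class. The nuclear median was 0.42 in resident-like, -0.11 in lipid-associated and -0.03 in dividing cells, where all genes had -0.21, -0.16 and -0.06. The signs of the nuclear medians in lipid-associated and dividing cells lie within the 0.25 by which TMM scaling moved the pooled log2 ratios. The mitochondrial median was 0.38, 0.47 and 0.36 in the same order of classes. Uqcr11 shows the first pattern, at 299 CPM in WT HFD and 651 in CKO HFD in lipid-associated cells, 205 and 470 in resident-like cells, and 262 and 560 in dividing cells. Cox8a in resident-like cells was at 532, 975, 288 and 334 CPM. The level of mt-Co3 in those cells was 5370, 2365, 3225 and 3658 CPM.

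**Figure D5:**
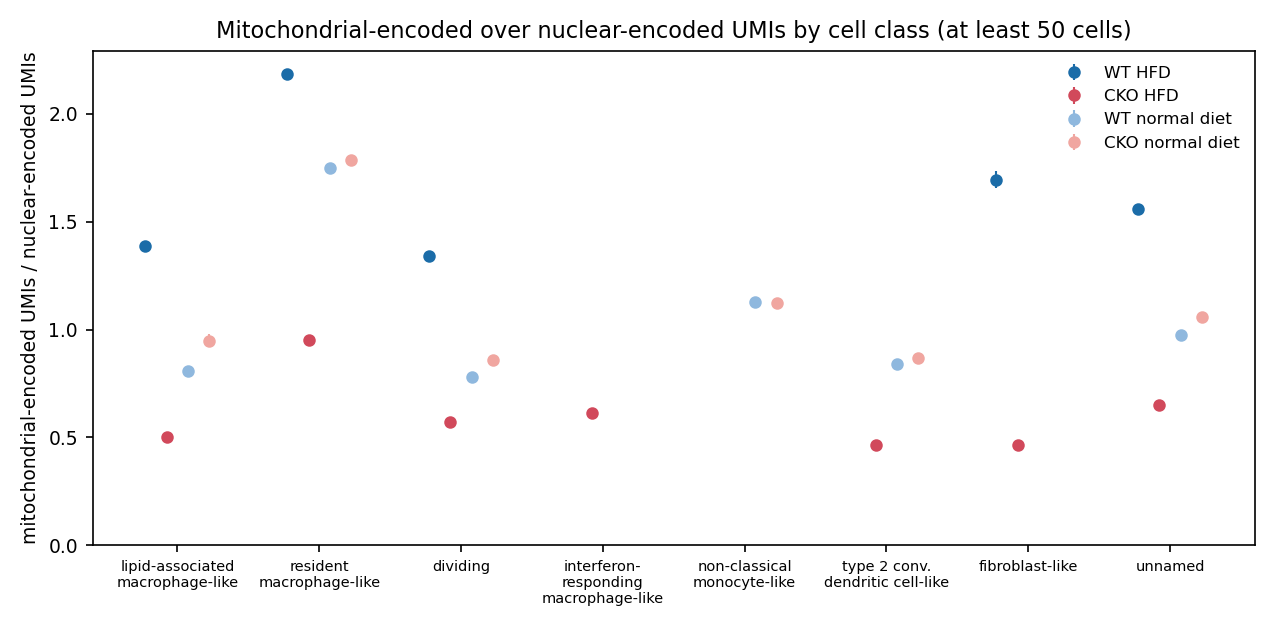
Mitochondrial-encoded counts divided by nuclear-encoded counts in each cell class with at least 50 cells in a library, with exact 95% binomial intervals. The WT HFD point is the highest and the CKO HFD point the lowest in every class that holds both libraries, for example 2.19 and 0.9504 in resident macrophage-like cells.

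Isoforms known from other tissues were mostly under the limit of 10 CPM, Cox7a1 being the exception. Cox4i2, the isoform of lung and hypoxia, was at 0.0918 to 0.494 CPM, beside 547 to 755 CPM for Cox4i1. The heart and muscle forms Cox6a2 and Cox7a1 reached 2.49 and 16.1 CPM in CKO HFD, where their widely expressed partners Cox6a1 and Cox7a2 were at 281 and 540. Cox8b was at no more than 0.107 CPM, and Cox8c had no count. Ndufa4l2, the hypoxia-induced relative of Ndufa4, was at 1.008 and 1.03 CPM in WT HFD and CKO HFD, at 0 CPM in WT ND (no count, which allows up to 0.138) and at 0.0816 CPM in CKO ND. Cox6b2, the testis form, was at 3.64, 4.49, 7.76 and 9.63 CPM, higher on the normal diet.

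Other genes of mitochondrial metabolism did not all move with the nuclear subunits. The counts below are for CKO HFD over WT HFD, where 5.1% of all genes were higher and 18.6% lower. Of 77 genes of the mitochondrial ribosome 5 were higher, a share near that of all genes, and 0 lower (median 0.20), with Mrpl33 at 228 CPM in WT HFD and 446 in CKO HFD and Mrpl52 at 178 and 389. Of 24 import genes 4 were higher and 0 lower (median 0.17), among them Tomm7 of the outer membrane pore at 233 and 493 CPM and Tomm6 at 249 and 425. Of 28 assembly factors outside the symbol rule 8 were higher and 2 lower, with Atpif1, which inhibits ATP hydrolysis by the synthase, at 447 and 715 CPM and the copper chaperone Cox17 at 137 and 259. Of 17 genes for cytochrome c, ubiquinone and its feeders 1 was higher and 4 lower. The 1 higher was Cycs, cytochrome c itself, at 116 and 185 CPM, while Etfb was at 240 and 247.

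The cytoplasmic ribosome, whose transcripts are also short, had 28 of 83 genes higher and 5 lower, with a median of 0.36. Rps29 was at 4903 and 7974 CPM and Rpl37a at 2996 and 6298. Genes of the citric acid cycle had 0 of 17 higher and 0 lower (median -0.18, a sign that turns with the 0.21 that TMM scaling adds), with Mdh2 at 121 and 124 CPM and Ogdh at 87.6 and 69.3. Genes of fatty acid oxidation had 0 of 13 higher and 1 lower (median -0.33), with Hadha at 95.4 and 69.1 CPM and Cpt1a at 79.1 and 61.5. Of 13 carriers and channels none was past 1.5 times, with Ucp2 at 768 and 830 CPM and Slc25a3, the phosphate carrier, at 406 and 445. None of the 12 genes of mitochondrial DNA upkeep was past 1.5 times, with Slirp, which stabilises mitochondrial mRNA, at 63.2 and 88.7 CPM and Ssbp1 at 50.4 and 75.9. Of 8 hypoxia-linked genes 1 was higher and 0 lower, with Hif1a at 80.4 and 98.5 CPM and Higd1a, also on the list of assembly factors, at 82.1 and 142.

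Regulators of mitochondrial gene expression formed another list. Of 9 measured, 0 were higher and 3 lower in CKO HFD than in WT HFD, where 5.1% and 18.6% of all genes were. In CKO HFD, 8 were lower than in CKO ND, where 40.5% of all genes were. With centring on genes of like span the list's median moved from -0.50 to -0.10 in CKO HFD over WT HFD and from -0.75 to -0.30 in HFD over ND in CKO. Nfe2l2, the antioxidant factor NRF2, was at 335 CPM in WT HFD and 178 in CKO HFD, and at 395 in WT ND and 373 in CKO ND. Yy1 was at 101, 60.8, 99.0 and 98.9 CPM, and Nrf1 at 46.8, 26.6, 77.5 and 82.6. CKO HFD was the lowest library for all 3. The 16 genes of the dissociation and stress list had 1 higher and 2 lower in CKO HFD over WT HFD (median 0.28), with Fos at 2704 and 2837 CPM and Junb at 1717 and 2076.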

How the data were processed

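Single-cell RNA was measured in 4 libraries, 1 per group. The deposited values are counts of unique molecular identifiers per gene and cell, made by the authors with Cell Ranger 7.0.0, per the file headers; the build is GRCm38, per the submitters' processing notes. The sources used here do not state whether intronic reads count. From there, cells with at least 500 counts, 300 genes and at most 10% mt- counts were kept and summed per library. Levels are CPM of all counts, with exact Poisson intervals; gene ratios have exact binomial intervals, and ratios of ratios Wald intervals. Log2 ratios used CPM + 1. Levels are not divided by length and are not compared between genes. Cells were clustered with scanpy 1.11.5 and leidenalg 0.10.2 (2000 variable genes, 30 components, 15 neighbours, resolution 1) without the respiratory genes. Scrublet's automatic calls marked 0 cells, so no doublets were removed; removing the top scores was an alternative. A class needed 3 markers and, per library, 50 cells. TMM factors came from edgeR 4.0.16 (R 4.3.3) on the summed counts, with no test. Genes named are all mitochondrial members, the 3 highest nuclear subunits by mean CPM in each complex, the 5 highest and 5 lowest ratios of CPM + 10 in each comparison, tissue isoform pairs, members near the limit, and the 2 highest genes of each other list; Nrf1, Ndufaf3, Ndufaf7 and the full list of nuclear-retained RNAs were added after their values were seen. Members and lists were chosen with earlier results of these data known. Nuclear near-copies of mitochondrial DNA and overlapping genes may share reads. One gene that this rule names is not reported here.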

Additional observations from a re-analysis of the deposited data

Results flagged for a closer look

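The 56 named genes screened here were chosen in part by their ratios in these same comparisons. The rule below was not applied to all genes, so the number it gives has no background share. Among the mitochondrial over nuclear ratios and the named genes, 24 values had CKO over WT on one side of 1 under HFD and on the other under ND, with both counting intervals clear of 1 and a ratio past 1.5 times under at least 1 diet. Smaller differences of this kind, such as mt-Co2 (0.735 and 1.12), mt-Nd4 (0.867 and 1.08) and Cox4i1 (0.872 and 1.05), are not listed. Each is given as CKO over WT under HFD divided by that under ND; with 1 library in each group the difference was not tested. For mitochondrial over nuclear counts this quotient was 0.388 over all genes (0.426 under HFD and 1.10 under ND), 0.431 in complex I, 0.51 in complex III, 0.374 in complex IV and 0.286 in complex V. Among the mitochondrial genes past that size it was 0.435 for mt-Atp6, 0.399 for mt-Co3 and 0.577 for mt-Nd1, while for mt-Nd4l it was 1.98.

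The nuclear genes in this group lay above 1 under HFD, from 1.51 (Atp5k) to 2.15 (Uqcr11), and below it under ND. Under ND they ran from 0.765 (Ndufb1-ps) to 0.973 (Atp5l), beside 0.972 for the summed counts of all 87 nuclear genes. The quotients thus came mostly from the HFD side. In complex I the quotient was 2.21 for Ndufa1, 1.8 for Ndufa2, 1.98 for Ndufa3 and 2.63 for Ndufb1-ps. In complex III it was 2.28 for Uqcr11, 1.64 for Uqcrh and 1.95 for Uqcrq. In complex IV it was 2.1 for Cox6b1, 1.92 for Cox7c and 2.06 for Cox8a. In complex V it was 2.28 for Atp5e, 1.85 for Atp5k, 2 for Atp5l, 2.59 for Atp5md and 2.3 for Atp5mpl.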

How the results depend on the processing

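Library and group cannot be told apart, the WT HFD library is the deepest per cell, and intervals cover counting error only. No paired analysis was possible because each group has 1 library, and no replicate could be left out. Of the alternative values for the counts of genes and the mitochondrial over nuclear ratios, 113 kept within 1.5 times of a count or within the interval of a ratio, and 35 did not. A count has no direction to turn. The ratio ran from 0.298 to 0.469 in CKO over WT under HFD and from 1.06 to 1.11 under ND. It ran from 1.18 to 1.74 in HFD over ND in WT and from 0.480 to 0.616 in CKO. Over all alternatives the number of nuclear genes over 1.5 times higher ran from 34 to 60 in CKO over WT under HFD, from 13 to 33 in HFD over ND in WT and from 44 to 76 in HFD over ND in CKO. Among the alternatives, the share of all genes past that size was computed only under TMM scaling and with totals that leave out mitochondrial-encoded genes. For the values that moved, the cause was not tested.

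In cells of 2000 to 8000 counts (chosen after seeing the data), 60 nuclear genes were higher and 1 lower in CKO over WT under HFD. The ratio there was 0.298 for CKO over WT under HFD, 1.08 under ND, 1.74 for HFD over ND in WT and 0.480 in CKO. With cells weighted equally the ratios, in the same order, were 0.469, 1.08, 1.18 and 0.511 (33 genes higher and 0 lower in HFD over ND in WT), and with classes weighted equally 0.409, 1.06, 1.61 and 0.616. For CKO over WT under HFD the ratio was 0.433 with at most 5% mt- counts, 0.415 with no such limit, 0.428 without dendritic, lymphoid, granulocyte and stromal clusters, 0.428 without top doublet scores and 0.422 with subunits only. For HFD over ND in CKO the same 5 gave 0.575, 0.564, 0.563, 0.571 and 0.563. For HFD over ND in WT, no limit gave 1.49 and leaving out those clusters 1.45. TMM scaling gave 31 higher and 0 lower genes in HFD over ND in WT. The 2 lower genes there became 1 with a pseudocount of 10, 5 with centring on span and 1 with centring on transcript length (chosen after seeing the data). In HFD over ND in CKO, 0 lower genes became 1 with every symbol that had a count and 1 with centring on span.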

Other observations

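The cells left out by the filters were most numerous in WT HFD. There, 323 cells had under 300 genes, and 319 of these were over the 10% mt- limit, with a median of 68.75% mt- counts and 168 genes. A further 81 WT HFD cells were over the limit alone, with a median of 46.4%. In the other 3 libraries 2 to 12 cells had under 300 genes and 6 to 23 were over the limit alone.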
